A study of Mus musculus with 6 samples.

Results

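The genes described here encode the proteasome: 41 mouse genes, taken by symbol from the 18253 symbols listed in at least 1 of 6 liver RNA-seq libraries. They comprise 7 core alpha genes (Psma1 to Psma7), 7 core beta genes (Psmb1 to Psmb7), 3 immunoproteasome genes (Psmb8, Psmb9 and Psmb10), 6 ATPase genes (Psmc1 to Psmc6), 14 lid, base and chaperone genes (Psmd1 to Psmd14) and 4 activator genes (Psme1 to Psme4). The group was put forward with the difference between the treatments already known. The fold changes and calls of these 41 genes are therefore given as a description of the libraries, and nothing rests on them as a test.

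The livers came from C57BL/6 mice labelled postnatal day 21. In 3 libraries the mice had been given alpha-naphthylisothiocyanate (ANIT) plus celastrol, and in the other 3 libraries ANIT alone, with a treatment period of 5 days. ANIT is a bile duct toxicant used to produce cholestasis in rodents, and celastrol is a plant triterpenoid. All 6 libraries carry ANIT and no untreated liver was analysed here, so the values compare celastrol with no celastrol under ANIT only. The labels do not say that the libraries are separate animals, so SDs and limma results measure the spread between these libraries, which may be technical.

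The proteasome is the main protease of the cytosol and nucleus for proteins tagged with ubiquitin. A barrel-shaped core carries rings of alpha subunits, which form the gate, around rings of beta subunits, of which some hold the proteolytic sites. A regulatory particle caps the barrel: its base holds a ring of ATPases that unfold and feed in the substrate, and its lid removes the ubiquitin chain. Interferon makes cells exchange the catalytic beta subunits for inducible ones, which gives the immunoproteasome, and the Psme genes encode alternative caps. When proteasome capacity is short, the transcription factor Nrf1 (gene Nfe2l1) raises subunit genes together.

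Expression was measured as FPKM, the fragments of a gene divided by its length in kilobases and by the size of the library, so levels can be compared between genes. Depth, estimated from the steps between low FPKM values, was 19400000 to 19780000 reads in the ANIT plus celastrol libraries and 18940000 to 19840000 reads in the ANIT libraries. The 10 most abundant genes took 33.2%, 20.7% and 31.5% of all FPKM in ANIT plus celastrol libraries 1, 2 and 3, against 20.3% to 21.9% in the ANIT libraries. ANIT plus celastrol libraries 1 and 3 thus stood apart from the other 4 in this share, and its part in the differences below was not tested. Albumin (Alb), the defining hepatocyte product, was present in all libraries, at 5341 to 10051 FPKM with celastrol and 29351 to 38656 FPKM with ANIT alone (limma log2 fold change of -2.27, SE 0.29, adjusted p = 0.0024). The summed level of 6 hepatocyte markers was 13974 to 20603 FPKM with celastrol, against 40129 to 52499 FPKM with ANIT alone, and Alb carried this difference. None of the other 5 markers (Apoa1, Ttr, Hnf4a, Cps1 and Serpina1a) was past the threshold, 4 of them overlapped between groups, and their sum overlapped, at 8633 to 10663 FPKM with celastrol and 10597 to 13843 FPKM with ANIT alone.

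All 41 genes were listed in all 6 libraries, between 4.68 and 144.91 FPKM, and all 41 passed the filter for low values (at least 1 FPKM in at least 3 libraries). With ANIT plus celastrol the mean was below the ANIT mean for 38 genes and above it for 3, Psmb8, Psmb9 and Psmd9. By limma on log2(FPKM + 1), with an adjusted p under 0.05 over the 10593 genes tested, 21 of the 41 genes were lower with celastrol and 0 were higher, where 20.6% of all tested genes were lower and 4.41% were higher (25.0% in either direction). All 41 genes had a mean of at least 5 FPKM, and when the 6446 such genes were tested alone 24 of the 41 were lower, where 28.9% of those tested were. All 3 celastrol libraries lay below all 3 ANIT libraries for 31 of the 41 genes, against 36.6% of all tested genes, and above them for 1, Psmd9, against 8.35% of all tested genes. The median log2 fold change of the 41 genes was -0.45, beside -0.17 over all tested genes and -0.23 over those with a mean of at least 5 FPKM. Summed over the 41 genes, the level was 1779 ± 229 FPKM with celastrol and 2393 ± 56.8 FPKM with ANIT alone (SD, n = 3 each), or 0.302% ± 0.0402 of all FPKM with celastrol and 0.443% ± 0.0162 with ANIT alone.

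The count of 21 rests on which libraries and which scaling are used. It was 5 without ANIT plus celastrol library 1, 9 without library 3 of that group, and 32 without library 2, the celastrol library with the highest level of all 41 genes. Leaving out ANIT libraries 1, 2 or 3 gave 9, 6 or 10. The share of all tested genes that were lower moved with it, at 8.81%, 12.5% and 32.0% without celastrol libraries 1, 3 and 2, and 11.4%, 8.77% and 13.8% without ANIT libraries 1, 2 and 3. Median-ratio scaling, which moved the median of all genes by 0.15 to -0.02, left 12 genes lower where 11.0% of all tested genes were lower. Quantile normalization left 6 genes lower where 9.11% were, and rescaling to TPM 32 where 36.0% were. Psmb5, Psmd5, Psmd8, Psmd11 and Psmd14 were lower past the threshold in all 16 settings run. Psma4, Psmb1, Psmb8, Psmb9, Psmb10, Psme1 and Psme2 were past it in none. The shares of all tested genes that were lower in all 16 settings, or past the threshold in none, were not counted. These lists therefore describe single genes and are not set against a background.

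**Figure D1:**
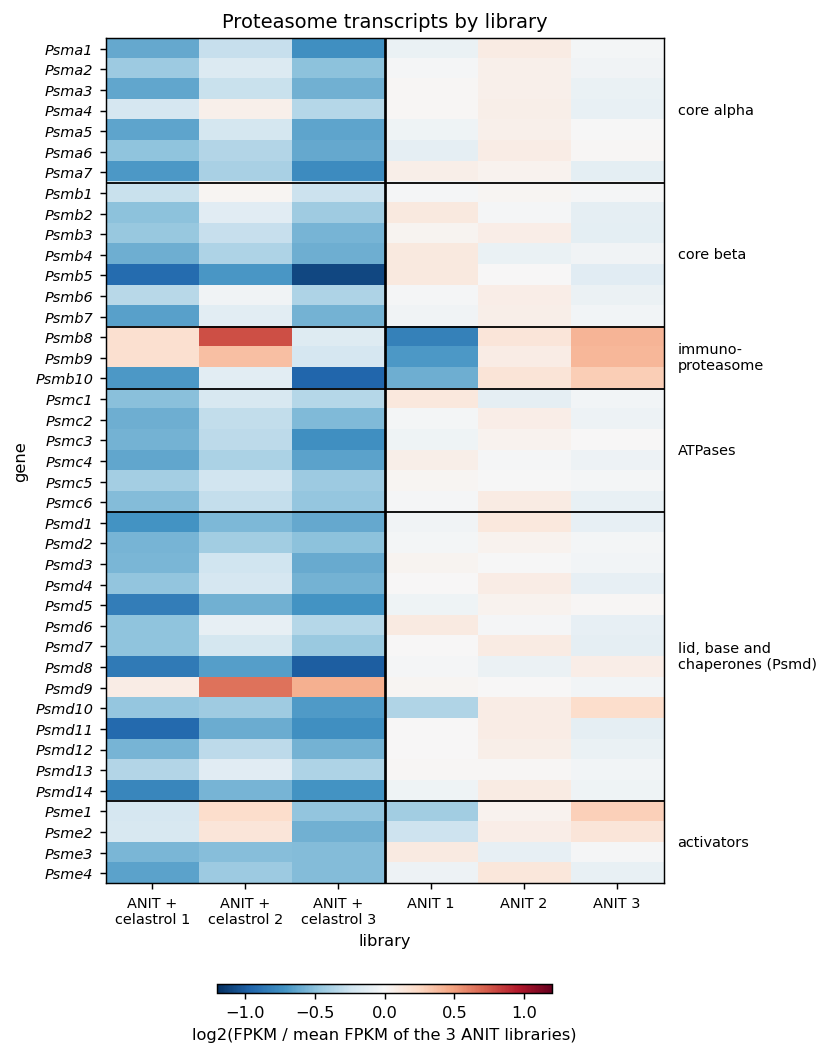
Level of each of the 41 genes (rows, by role) in each library (columns), as log2 of FPKM over the mean of the 3 ANIT libraries; blue is below that mean and red above it. The ANIT plus celastrol columns are mostly blue, least so in library 2. Among these columns the rows of Psma4, Psmb1, Psmb8, Psmb9, Psme1 and Psme2 hold values on both sides of the ANIT mean.

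The levels themselves kept nearly the same order in both groups: across the 41 genes, Spearman's rho between the celastrol and the ANIT means was 0.97, a description across genes of 1 set of libraries. Psmb4 had the highest mean over all libraries and Psmd10 the lowest. Within the ANIT group the highest gene was 17.7 times the lowest. The core genes other than the immunoproteasome genes had ANIT means of 44.1 FPKM or more, whereas the chaperone genes Psmd5, Psmd9 and Psmd10 had ANIT means of 15.3, 10.3 and 7.96 FPKM. The 3 chaperones are not part of the finished particle. The 41 genes lie on 15 chromosomes in GENCODE M21 (mm10), with Psmb8 and Psmb9 close together on chromosome 17 and Psme1 and Psme2 on chromosome 14. The annotated exons of 12 of them share bases with another gene (Psma4, Psma5, Psmb5, Psmb7, Psmb8, Psmb9, Psmc3, Psmd1, Psmd3, Psmd9, Psmd13 and Psme1), which leaves their FPKM less certain.

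Core alpha genes build the outer rings and the gate of the core. Of the 7, Psma1, Psma3, Psma5, Psma6 and Psma7 were lower past the threshold, where 20.6% of all tested genes were. The mean was lower for all 7, with a median log2 fold change of -0.48. Psma7 had 62.0, 76.23 and 59.4 FPKM with celastrol, against 104.87, 102.81 and 92.07 FPKM with ANIT alone. Psma6 had 58.28, 63.5 and 53.03 FPKM with celastrol, against 75.32, 86.39 and 82.1 FPKM with ANIT alone. For both, every celastrol library was below every ANIT library, as in 36.6% of all tested genes. The log2 fold change was -0.60 (SE 0.14) for Psma7 and -0.47 (SE 0.13) for Psma6. Psma4 lay outside this pattern at 94.8 ± 14.0 FPKM with celastrol and 105 ± 5.97 FPKM with ANIT alone, where the groups overlapped. Psma2 did not pass the threshold either, at 46.1 ± 5.77 FPKM with celastrol and 59.1 ± 2.10 FPKM with ANIT alone. None of the 5 calls held without ANIT plus celastrol library 1 or 3 or without ANIT library 1 or 2, and 1, Psma7, held without ANIT library 3. Without ANIT plus celastrol library 2, 6 of the 7 genes were lower, where 32.0% of all tested genes were.

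**Figure D2:**
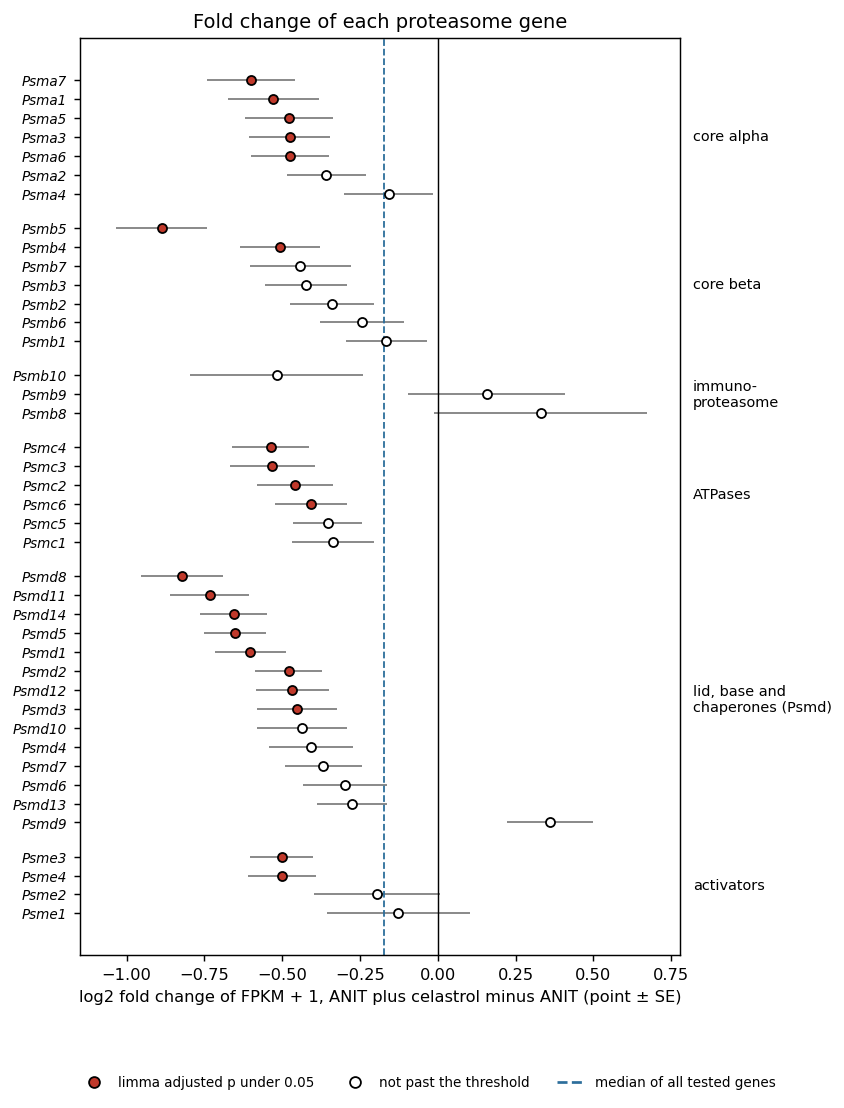
Log2 fold change of FPKM + 1 (ANIT plus celastrol minus ANIT, point ± SE) of each gene, by role, with the 21 genes past limma's threshold filled. Most points lie left of the dashed median of all tested genes at -0.17, Psmb5 farthest at -0.89, and Psmd9, Psmb8 and Psmb9 lie right of 0.

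The core beta genes include the constitutive catalytic subunits Psmb5 (chymotrypsin-like), Psmb6 (caspase-like) and Psmb7 (trypsin-like). Psmb5 had the most negative fold change of the 41 genes. It had 64.75, 75.69 and 57.6 FPKM with celastrol, against 132.82, 123.0 and 111.53 FPKM with ANIT alone, so that the celastrol mean was 53.9% of the ANIT mean (log2 fold change -0.89, SE 0.15). The other catalytic genes moved less and did not pass the threshold. Psmb6 had 68.9, 84.17 and 66.96 FPKM with celastrol, against 85.92, 91.34 and 82.68 FPKM with ANIT alone, and the groups overlapped. Psmb7 had 76.61, 109.84 and 81.03 FPKM with celastrol, against 116.53, 125.91 and 117.54 FPKM with ANIT alone, without overlap but with a wide spread with celastrol (log2 fold change -0.44, SE 0.16). In ANIT livers Psmb5 and Psmb7 were thus at similar levels (122 ± 10.7 and 120 ± 5.15 FPKM), while with celastrol they averaged 66.0 ± 9.11 and 89.2 ± 18.0 FPKM.

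Psmb4, a structural beta subunit, was the only other of the 7 beta genes past the threshold (20.6% of all tested genes were lower). It had 89.47, 103.76 and 89.18 FPKM with celastrol, against 144.91, 126.84 and 130.33 FPKM with ANIT alone, without overlap (log2 fold change -0.51, SE 0.13). Its call was lost on leaving out any library other than ANIT plus celastrol library 2, so that Psmb5 alone was called in each of those 5 fits. Without ANIT plus celastrol library 2, 6 of the 7 beta genes were lower, where 32.0% of all tested genes were. Psmb1, Psmb2 and Psmb3 were not past the threshold, at 91.3 ± 10.9, 45.2 ± 6.06 and 78.9 ± 7.97 FPKM with celastrol and 102 ± 1.59, 57.2 ± 4.50 and 106 ± 7.47 FPKM with ANIT alone. The median log2 fold change of the 7 beta genes was -0.42. The summed beta level was 142% to 149% of the summed alpha level in the celastrol libraries and 142% to 153% in the ANIT libraries, which overlap.

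Psmb5 is annotated on the minus strand at chr14:54614119-54618022 (mm10, GENCODE M21), where its exons share bases with the microRNA gene Mir686 on the same strand. Its promoter window, from RefSeq on GRCm38.p6, runs 250 bases before to 50 after the RefSeq start, at chr14:54617946-54618245. It is shown because it holds TGACNNNGC, the core letters of the element bound by Nrf1 and Nrf2 (in capitals, starting 47 bases before the RefSeq start).
Psmb5: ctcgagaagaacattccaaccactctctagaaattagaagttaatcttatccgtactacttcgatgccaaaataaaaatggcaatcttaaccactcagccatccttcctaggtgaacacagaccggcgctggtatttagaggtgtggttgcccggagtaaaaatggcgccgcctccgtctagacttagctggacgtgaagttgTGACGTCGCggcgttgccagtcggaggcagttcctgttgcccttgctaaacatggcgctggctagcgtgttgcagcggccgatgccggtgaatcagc

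None of the 3 immunoproteasome genes passed the threshold. Psmb8 replaces Psmb5, Psmb9 replaces Psmb6 and Psmb10 replaces Psmb7 in cells exposed to interferon and, constitutively, in many leukocytes. Psmb8 had 15.91, 23.73 and 12.47 FPKM with celastrol, against 7.94, 15.35 and 18.39 FPKM with ANIT alone. Psmb9 had 8.63, 9.67 and 6.58 FPKM with celastrol, against 4.68, 8.04 and 9.94 FPKM with ANIT alone. Psmb10 had 17.23, 25.32 and 14.33 FPKM with celastrol, against 18.44, 30.8 and 33.91 FPKM with ANIT alone. In all 3 genes the groups overlapped and the ANIT libraries differed among themselves by more than the group means did (log2 fold changes 0.33, SE 0.34, for Psmb8; 0.16, SE 0.25, for Psmb9; -0.52, SE 0.28, for Psmb10). The signs of Psmb8 and Psmb9 turned without ANIT library 1, to -0.0010 and -0.11. Psmb9 shares exonic bases with Tap1 on the opposite strand (chr17:34181987-34187764 for Psmb9), and reads of these neighbours cannot be told apart if counting ignored strand.

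**Figure D3:**
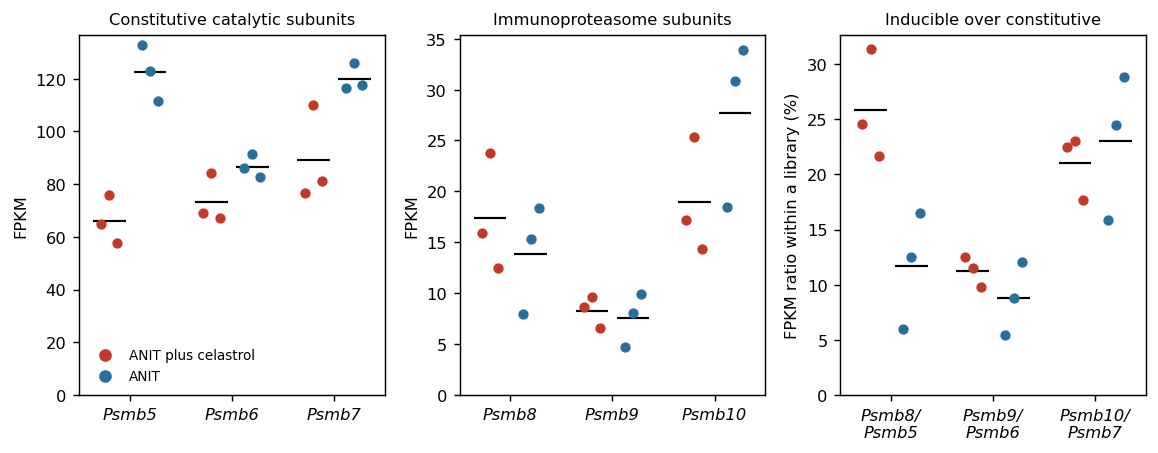
FPKM of the constitutive catalytic genes (left) and of their inducible counterparts (middle), and the inducible over constitutive FPKM ratio in percent (right); points are libraries, ANIT plus celastrol in red and ANIT in blue, lines are means. Psmb5 separates the groups with no overlap, the 3 inducible genes overlap, and of the ratios Psmb8 over Psmb5 does not overlap between groups.

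Within a library the ratio of an inducible to its constitutive gene does not depend on a linear scaling of that library. Psmb8 was at 24.6%, 31.4% and 21.6% of Psmb5 with celastrol, against 5.98%, 12.5% and 16.5% with ANIT alone (25.9% ± 4.98 with celastrol and 11.6% ± 5.30 with ANIT alone, SD, n = 3 each), without overlap. Psmb9 was at 12.5%, 11.5% and 9.83% of Psmb6 with celastrol, against 5.45%, 8.80% and 12% with ANIT alone. Psmb10 was at 22.5%, 23.1% and 17.7% of Psmb7 with celastrol, against 15.8%, 24.5% and 28.8% with ANIT alone. The last 2 ratios overlapped between the groups, so Psmb8 with Psmb5 was the 1 pair of the 3 whose groups did not overlap. No test is given for these ratios, since the genes were chosen on this comparison.

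The 5 genes Psmb8, Psmb9, Psmb10, Psme1 and Psme2 had the same library order within each group. All 5 were highest in library 2 and lowest in library 3 of the celastrol group, and lowest in library 1 and highest in library 3 of the ANIT group. Their summed level was 166.81, 220.61 and 132.81 FPKM with celastrol, against 145.1, 203.71 and 228.67 FPKM with ANIT alone. The other 36 genes summed to 1507.57, 1820.77 and 1487.54 FPKM with celastrol, against 2226.79, 2253.54 and 2121.03 FPKM with ANIT alone, without overlap. In the ANIT group 23 of these 36 genes were lowest in library 3, the library in which the 5 genes were highest. Of the same 36 genes, 9 were lowest in ANIT library 1 and 2 were highest in ANIT library 3. All 36 were highest in celastrol library 2 and 19 were lowest in celastrol library 3, so the celastrol order was not particular to the 5 genes. Psmd10, 1 of the 36, had the order of the 5 genes in both groups.

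A sum of 4 general leukocyte markers (Ptprc, Coro1a, Laptm5 and Cd52) had the same library order as the 5 genes within each group, but not across all 6 libraries, at 31.17, 34.55 and 27.14 FPKM with celastrol, against 13.03, 26.76 and 33.12 FPKM with ANIT alone, and 0 of the 4 markers were past the threshold. Their part in the levels of the 5 genes was not tested. Of the 4 markers, Coro1a was highest in ANIT library 2 (5.59 FPKM, against 5.04 FPKM in library 3). The other immune lists did not keep this order in both groups. Celastrol library 1 was highest for the macrophage sum (217.7, against 211.29 FPKM in library 2), and celastrol library 3 for the neutrophil sum. The neutrophil, antigen presenting cell and lymphocyte sums were highest in ANIT library 2. The 7 macrophage markers summed to 147.1 to 217.7 FPKM with celastrol and 83.92 to 208.51 FPKM with ANIT alone, with 0 called. Of 5 markers of antigen presenting cells, 4 were tested and 3 were higher with celastrol. The 5 summed to 46.55 to 62.46 FPKM with celastrol against 11.16 to 32.0 FPKM with ANIT alone. Of 6 neutrophil markers, 4 were tested and 3 were higher. The 6 summed to 62.65 to 86.05 FPKM with celastrol against 27.79 to 51.88 FPKM with ANIT alone, with Mpo at 0 in ANIT library 2. Over all tested genes 4.41% were higher and 20.6% were lower. The 8 lymphocyte markers summed to 0.89 to 2.59 FPKM with celastrol and 0.81 to 1.13 FPKM with ANIT alone, none passed the filter, and Cd3e was at 0 in ANIT libraries 2 and 3. Markers of cholangiocytes summed to 16.24 to 44.7 FPKM with celastrol and 38.84 to 46.15 FPKM with ANIT alone (1 of 3 tested lower), of endothelial cells to 14.06 to 20.12 and 8.08 to 15.82 FPKM in the same order (1 of 4 tested higher) and of stellate cells to 13.97 to 49.48 and 17.88 to 33.36 FPKM (0 of 4 tested called). In bulk liver RNA, fewer cells of a type and less RNA per cell cannot be told apart.

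**Figure D4:**
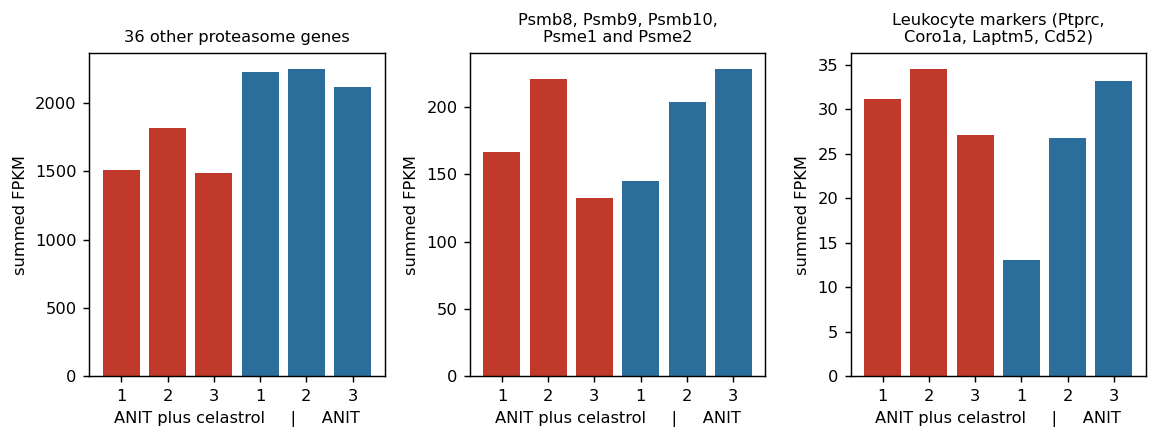
Summed FPKM per library (bars; ANIT plus celastrol in red, ANIT in blue) of the 36 other proteasome genes, of Psmb8, Psmb9, Psmb10, Psme1 and Psme2, and of 4 leukocyte markers. In the left panel all celastrol bars are below all ANIT bars; in the middle and right panels the groups overlap and the libraries keep the same order within each group.

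The ATPase genes had a narrow range of fold changes. The 6 subunits form the ring of the base that unfolds substrates. In all 6 the celastrol libraries lay below the ANIT libraries, as in 36.6% of all tested genes. The log2 fold changes of the 6 lay between -0.54 and -0.34. Psmc2, Psmc3, Psmc4 and Psmc6 were lower past the threshold, where 20.6% of all tested genes were. Psmc4 had 43.75, 51.56 and 43.21 FPKM with celastrol, against 70.77, 66.65 and 64.48 FPKM with ANIT alone (log2 fold change -0.54, SE 0.12). Psmc3 had 45.75, 54.53 and 40.72 FPKM with celastrol, against 65.78, 69.87 and 68.22 FPKM with ANIT alone (log2 fold change -0.53, SE 0.14). Psmc1 and Psmc5 did not pass it, at 51.0 ± 5.54 and 41.5 ± 3.27 FPKM with celastrol and 64.6 ± 5.50 and 53.2 ± 0.879 FPKM with ANIT alone. Of the 4 calls none held without ANIT plus celastrol library 1 or 3 or without ANIT library 1 or 2, and 1, Psmc4, held without ANIT library 3. All 6 genes were lower without ANIT plus celastrol library 2, where 32.0% of all tested genes were. Psmc3 shares exonic bases with Slc39a13 on the opposite strand.

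Against 20.6% of all tested genes, 7 of the 11 Psmd genes of the base and the lid were lower past the threshold. In the base these were the scaffold subunits Psmd1 and Psmd2, but not Psmd4, a ubiquitin receptor, at 50.4 ± 6.72 FPKM with celastrol and 66.8 ± 4.22 FPKM with ANIT alone. In the lid they were Psmd3, Psmd8, Psmd11, Psmd12 and Psmd14, but not Psmd6, Psmd7 or Psmd13. Psmd8 had 56.4, 64.55 and 51.2 FPKM with celastrol, against 100.94, 96.85 and 107.74 FPKM with ANIT alone (log2 fold change -0.82, SE 0.13), the second most negative value of the 41 genes. Psmd11, a lid scaffold subunit, averaged 31.9 ± 3.65 FPKM with celastrol and 53.5 ± 3.76 FPKM with ANIT alone (log2 fold change -0.73, SE 0.13). Psmd14, the deubiquitinase of the lid, averaged 16.7 ± 1.37 FPKM with celastrol and 26.8 ± 1.69 FPKM with ANIT alone (log2 fold change -0.66, SE 0.11). The 3 lid genes that did not pass had log2 fold changes of -0.30 (Psmd6), -0.37 (Psmd7) and -0.28 (Psmd13).

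Set against the core, the lid differed through Psmd8. The summed lid level was 29.3%, 28.9% and 30.5% of the summed core alpha and beta level with celastrol, against 31.9%, 31.6% and 32.7% with ANIT alone, without overlap and with no test. Without Psmd8 the groups overlapped, at 22.7%, 22.7% and 24.3% with celastrol, against 23.7%, 23.9% and 23.5% with ANIT alone. The summed ATPase level was 27.6%, 26.9% and 28.8% of the core with celastrol, against 28.2%, 27.4% and 28.5% with ANIT alone, where the groups overlapped. Psmd3 and Psmd12 were not called when any library other than ANIT plus celastrol library 2 was left out, Psmd1 without ANIT plus celastrol library 1 or ANIT library 2, and Psmd2 without ANIT plus celastrol library 1 or any ANIT library. Of the 14 Psmd genes 4 were lower without ANIT plus celastrol library 1 or without ANIT library 2, and 12 without ANIT plus celastrol library 2. In the same order, 8.81%, 8.77% and 32.0% of all tested genes were lower in those fits.

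Of the 3 chaperones that assemble the base, 1 passed the threshold (20.6% of all tested genes were lower). Psmd5 had 8.57, 10.24 and 9.3 FPKM with celastrol, against 14.69, 15.75 and 15.38 FPKM with ANIT alone, and was lower past the threshold (log2 fold change -0.65, SE 0.10). Psmd10, also known as gankyrin, had 5.78, 5.92 and 4.98 FPKM with celastrol, against 6.21, 8.44 and 9.22 FPKM with ANIT alone, without overlap and not past the threshold (log2 fold change -0.44, SE 0.14). Psmd9 had 10.97, 16.23 and 13.92 FPKM with celastrol, against 10.49, 10.38 and 10.11 FPKM with ANIT alone (log2 fold change 0.36, SE 0.14). It was the 1 gene of the 41 whose celastrol libraries all lay above the ANIT libraries, narrowly so in library 1, and it was not past the threshold. It was higher past the threshold in 4 of 15 other settings (median-ratio scaling, quantile normalization, the 20 most abundant genes left out, and without ANIT plus celastrol library 1), and its fold change was positive in all 15, at 0.24 to 0.60.

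The Psmd9 promoter window, on the plus strand of chromosome 5 at chr5:123227940-123228239, is shown because Psmd9 was the 1 gene whose celastrol libraries all lay higher and because the window holds both motifs searched for stress and interferon control. The capitals mark GAAAAAGAAA, a pair of GAAA blocks with 2 bases between them (as in interferon response elements), and TGACCCCGC, a match to TGACNNNGC. GENCODE M21 places Psmd9 at chr5:123169413-123250131, so the window and both matches lie inside the annotated gene. The bases before that GENCODE start were not searched.
Psmd9: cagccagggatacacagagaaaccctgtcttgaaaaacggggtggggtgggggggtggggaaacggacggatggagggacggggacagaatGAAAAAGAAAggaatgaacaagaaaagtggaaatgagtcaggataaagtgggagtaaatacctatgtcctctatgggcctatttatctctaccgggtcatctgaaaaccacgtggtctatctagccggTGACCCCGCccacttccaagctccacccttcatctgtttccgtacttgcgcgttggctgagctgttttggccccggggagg

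Of the 4 activators, 2 were lower past the threshold and 2 were not past it, a difference between the pairs that was not tested. Over all tested genes 20.6% were lower. Psme1 and Psme2, the partners of an interferon-inducible cap, did not pass the threshold. Psme1 had 61.31, 81.48 and 50.78 FPKM with celastrol, against 52.96, 72.8 and 85.93 FPKM with ANIT alone (log2 fold change -0.13, SE 0.23). Psme2 had 63.73, 80.41 and 48.65 FPKM with celastrol, against 61.08, 76.72 and 80.5 FPKM with ANIT alone (log2 fold change -0.20, SE 0.20). Both overlapped between groups, and the sign of Psme1 turned under 4 of the other settings. Psme3, which encodes the nuclear cap, had 17.53, 17.95 and 17.83 FPKM with celastrol, against 27.66, 23.85 and 25.34 FPKM with ANIT alone (log2 fold change -0.50, SE 0.10). Psme4, a large activator of the nucleus, had 12.64, 14.6 and 13.82 FPKM with celastrol, against 18.94, 21.77 and 18.65 FPKM with ANIT alone (log2 fold change -0.50, SE 0.11). Psme3 and Psme4 were lower past the threshold without overlap, where 36.6% of all tested genes lay lower without overlap. Neither was called without ANIT plus celastrol library 1, and Psme3 alone was called without ANIT library 2.

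The Psme1 window at chr14:55578244-55578543 (plus strand) is shown as the 1 window among Psmb8, Psmb9, Psmb10, Psme1 and Psme2 to hold a pair of GAAA blocks with 2 bases between them. It stands there as its reverse complement (capitals), starting 9 bases after the RefSeq start on which the window is built. GENCODE M21 starts Psme1 earlier, at chr14:55578123, so the match lies inside the annotated gene. The Psmb8 and Psmb9 windows lie wholly inside the annotated genes too (chr17:34197721-34201454, plus strand, and chr17:34181987-34187764, minus strand). The bases before the GENCODE starts of Psmb8 and Psmb9 were thus not searched, and a missing match says nothing about them. Psme1 shares exonic bases with Emc9 on the opposite strand.
Psme1: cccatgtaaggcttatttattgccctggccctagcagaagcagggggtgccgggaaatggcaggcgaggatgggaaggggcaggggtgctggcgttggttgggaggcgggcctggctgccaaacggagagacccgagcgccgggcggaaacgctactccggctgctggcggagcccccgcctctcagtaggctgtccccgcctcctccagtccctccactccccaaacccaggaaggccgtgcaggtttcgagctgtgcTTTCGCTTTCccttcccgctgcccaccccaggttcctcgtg

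Promoter windows were found for 35 of the 41 genes (not Psmb1, Psmb2, Psmb7, Psmc3, Psmd3 and Psmd7), and both strands were searched. TGACNNNGC was present in 6 genes, Psmb5, Psmb6, Psmc6, Psmd9, Psmd12 and Psme4, or 17.1% of the 35, against 14.0% of all genes with a window. The GAAA pair was present in 4, Psmb3, Psmd4, Psmd9 and Psme1, or 11.4%, against 3.99% of all genes. CCAAT, a promoter element common to many genes, was in 13, or 37.1%, against 41.1% of all genes. None of the 7 alpha genes held TGACNNNGC, and 5 of them held CCAAT. A match is a description of letters, not a shown binding site. TGACNNNGC stood before the RefSeq start of Psmb5, with the most negative fold change of the 41, and also before that of Psmd9, with the most positive. The windows rest on RefSeq starts, and some, that of Psmd9 among them, lie inside the gene as GENCODE M21 annotates it.

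Tissue-restricted core subunits were close to the lower end of the values. Psma8, a subunit of the testis, had 0.18, 0.24 and 0.24 FPKM with celastrol, against 0.22, 0.21 and 0.18 FPKM with ANIT alone. Psmb11, a subunit of the thymus cortex, had 0.31, 0.29 and 0.31 FPKM with celastrol, against 0.5, 0.44 and 0.21 FPKM with ANIT alone. Neither passed the filter.

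Companion lists of genes that build, serve or control the proteasome were examined next, with limma adjusted p over all 10593 genes. Of 8 genes for core assembly and maturation, 7 were listed (Paaf1 was not, under that symbol), and 1 was lower and 0 were higher, with a median log2 fold change of -0.25 (for this and the other lists, 20.6% of all tested genes were lower and 4.41% higher). That gene was Psmg4, an assembly chaperone, at 6.65 ± 1.34 FPKM with celastrol and 9.74 ± 0.455 FPKM with ANIT alone (a log2 difference of -0.50 with an SE of 0.14; limma adjusted p = 0.032). The call of Psmg4 was lost without any library other than ANIT plus celastrol library 2 (limma adjusted p = 0.064 to 0.10). AI314180, now named Ecpas, an adaptor of the proteasome, averaged 11.1 ± 1.41 FPKM with celastrol and 14.9 ± 1.74 FPKM with ANIT alone (log2 fold change -0.40, limma adjusted p = 0.054). Pomp, the maturation factor of the core, overlapped between groups at 105 ± 18.0 FPKM with celastrol and 130 ± 15.8 FPKM with ANIT alone (limma adjusted p = 0.20).

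Of 14 proteasome receptors, deubiquitinases and inhibitors, 7 were lower and 0 were higher (Txnl1, Ubqln1, Ubqln2, Ubqln4, Usp14, Ube3c and Zfand5), with a median of -0.42. Txnl1, a thioredoxin-like protein bound to the regulatory particle, averaged 21.7 ± 2.5 FPKM with celastrol and 35 ± 2.21 FPKM with ANIT alone (log2 fold change -0.66, SE 0.12, limma adjusted p = 0.0089). Ubqln2, a ubiquilin that shuttles ubiquitinated proteins, averaged 6.67 ± 0.0764 FPKM with celastrol and 9.26 ± 0.439 FPKM with ANIT alone (log2 fold change -0.42, SE 0.09, limma adjusted p = 0.013). Neither Adrm1, a ubiquitin receptor (limma adjusted p = 0.061), nor Psmf1, an inhibitor of the core (limma adjusted p = 0.24), passed the threshold. Over the 15 other settings the number lower ranged from 1, without ANIT plus celastrol library 1 or ANIT library 2, to 10 on the TPM scale. In the same order, 8.81%, 8.77% and 36.0% of all tested genes were lower in those settings.

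Genes that control subunit transcription fell in part. Of 9 genes around Nrf1, 5 were lower and 0 were higher, with a median of -0.42. The number lower in the other settings ranged from 2, without ANIT plus celastrol library 1 or ANIT library 2, to 7 on the TPM scale. In the same order, 8.81%, 8.77% and 36.0% of all tested genes were lower in those settings. Ddi2, a protease that cleaves Nrf1, named after its values were seen, had 24.59, 29.65 and 25.91 FPKM with celastrol, against 24.53, 21.51 and 15.63 FPKM with ANIT alone (log2 fold change 0.38, SE 0.17, limma adjusted p = 0.14), without overlap, and was higher past the threshold under median-ratio scaling and quantile normalization. Nfe2l1, which encodes Nrf1 itself, had 26.03, 26.69 and 24.32 FPKM with celastrol, against 30.66, 36.55 and 28.56 FPKM with ANIT alone (log2 fold change -0.30, SE 0.12, limma adjusted p = 0.11), without overlap but not past the threshold. Nfe2l2, which encodes Nrf2, had 11.81, 16.57 and 11.82 FPKM with celastrol, against 27.44, 26.35 and 24.6 FPKM with ANIT alone, a decrease past the threshold in all 16 settings (log2 fold change -0.93, SE 0.14, limma adjusted p = 0.0053). Nploc4, a cofactor of the segregase Vcp that extracts Nrf1 from the endoplasmic reticulum, averaged 14.0 ± 1.39 FPKM with celastrol and 22 ± 1.01 FPKM with ANIT alone (log2 fold change -0.62, SE 0.11, limma adjusted p = 0.0072) and was also lower in all 16. The other 3 lower genes, named after their values were seen, were Vcp, Ufd1l and Ngly1.

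Of 18 tested genes for ubiquitin and its activation, 4 were lower, among them Uba1, Ube2k and Ube2g2, and 0 were higher, with a median of -0.28. That share is near the 20.6% lower among all tested genes. Uba1, the ubiquitin-activating enzyme, averaged 34.1 ± 0.731 FPKM with celastrol and 44.4 ± 0.882 FPKM with ANIT alone (log2 fold change -0.37, SE 0.10, limma adjusted p = 0.033). Ubb, a polyubiquitin gene, averaged 507 ± 35.9 FPKM with celastrol and 629 ± 68.9 FPKM with ANIT alone and did not pass the threshold (limma adjusted p = 0.16). The count was 0 under quantile normalization and on leaving out any library other than ANIT plus celastrol library 2, and 11 without that library or on the TPM scale. Of all tested genes, 32.0% were lower without ANIT plus celastrol library 2 and 36.0% on the TPM scale.

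Genes of interferon-inducible antigen processing went the other way in part. Of 17 tested, 7 were higher, among them Irf7, Irf9, Stat2, Gbp3, Isg15 and Ifit1, and 1, Tapbp, was lower, with a median of 0.11. Irf9, a subunit of the interferon-activated transcription factor complex, had 18.73, 16.04 and 16.19 FPKM with celastrol, against 8.62, 7.85 and 7.48 FPKM with ANIT alone (log2 fold change 1.0, SE 0.10, limma adjusted p = 0.0012), in all 16 settings. Irf7, an interferon-induced transcription factor, had 27.71, 23.64 and 19.24 FPKM with celastrol, against 8.58, 12.45 and 14.16 FPKM with ANIT alone (log2 fold change 0.96, SE 0.20, limma adjusted p = 0.014). The call of Irf7 was lost without ANIT plus celastrol library 1 (limma adjusted p = 0.056). The number higher was 1 without ANIT plus celastrol library 1, 2 without ANIT library 1 and 3 without ANIT library 2 or 3. In the same order, 196 of 10457, 296 of 10403, 255 of 10391 and 312 of 10407 tested genes were higher. Tapbp, named after its values were seen, is a chaperone of peptide loading, at 34.7 ± 3.07 FPKM with celastrol and 52.0 ± 10.6 FPKM with ANIT alone (log2 fold change -0.55, limma adjusted p = 0.0498), and was not past the threshold in 11 of 15 other settings. Tap1, the antigen peptide transporter gene beside Psmb9, had 6.38, 6.01 and 6.14 FPKM with celastrol, against 4.26, 5.29 and 4.93 FPKM with ANIT alone, without overlap and not past the threshold (limma adjusted p = 0.059), and is also named for its place beside Psmb9 after its values were seen. Psmb8, Psmb9 and Psmb10, which interferon also induces, were not among the genes that passed.

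**Figure D5:**
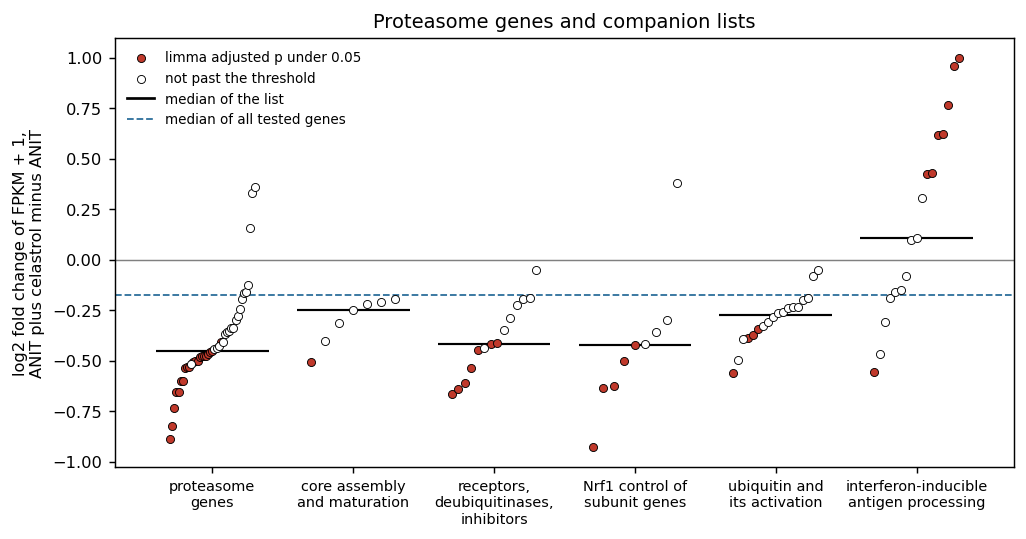
Log2 fold change of FPKM + 1 (ANIT plus celastrol minus ANIT) of each tested gene in the 41 proteasome genes and in 5 companion lists; filled points passed limma's threshold, black lines are list medians and the dashed line is the median of all tested genes. The medians are -0.45, -0.25, -0.42, -0.42, -0.28 and 0.11 from left to right.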

How the data were processed

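RNA was measured in 6 mouse liver libraries, 3 from ANIT plus celastrol and 3 from ANIT, grouped and numbered by their titles. The authors deposited 1 table of gene symbols and FPKM values per library, per the file headers. The submitters' processing notes name HISAT2, featureCounts and the mouse build mm10, without versions. The sources used here do not state how FPKM was computed, on which annotation, or whether strand was used. Genes with overlapping exons (12 of the 41) and genes with a pseudogene named after them (Psmb5, Psmb6 and Psmb7) are therefore uncertain. Pseudogenes under other names were not searched for, so other genes of the 41 may have copies too. Symbols missing from a library's table were given the value 0.

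The log2(FPKM + 1) values of the 10593 symbols that reached 1 FPKM in 3 or more libraries were fitted by treatment in limma 3.58.1 under R 4.3.3, with trended, robust empirical Bayes variances and Benjamini-Hochberg adjustment over all tested symbols. Calls are at an adjusted p under 0.05. The script was tested on simulated data. With 3 against 3 libraries an exact permutation test cannot go below 0.1, so none was run. FPKM tables carry no read totals, and depth was estimated from the steps between low FPKM values. Another 15 settings were run. Members and lists were chosen with earlier results of these data known. Library values are given for the 2 genes with the smallest p of each role, all catalytic, inducible and activator genes and the highest and lowest gene, and of each companion list the 2 genes with the smallest p and Nfe2l1, Nfe2l2, Pomp, Psmf1, Adrm1 and Ubb are named; some genes of these lists are not reported here.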

Additional observations from a re-analysis of the deposited data

How the results depend on the processing

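The number of all genes called was 2652 and moved to 4202 on the TPM scale and to 1117 to 3810 on leaving out 1 library. Of the 41 genes, 21 were lower, and 12 under median-ratio scaling, 6 under quantile normalization, 32 on the TPM scale and 5 to 32 on leaving out 1 library. Instead of 0, 1 gene (Psmd9) was higher under median-ratio scaling, under quantile normalization, after removal of the 20 most abundant genes and without ANIT plus celastrol library 1. The split of all calls into higher and lower was 467 and 2185, and 793 and 1170 under median-ratio scaling, 864 and 965 under quantile normalization, 554 and 1748 after that removal, and 389 and 3813 on the TPM scale. The median of the 41 genes was -0.28 under median-ratio scaling, -0.58 on the TPM scale and -0.16 under quantile normalization, and lay 0.17 to 0.29 below that of all genes in every setting but the one with no filter. Under median-ratio scaling the medians were -0.30 (alpha), -0.24 (beta), -0.26 (ATPases), -0.29 (Psmd) and -0.17 (activators). Under quantile normalization they were -0.17, -0.18, -0.12, -0.17 and -0.080, and on the TPM scale -0.55 (beta), -0.56 (ATPases) and -0.59 (Psmd). The cause of these shifts was not tested. Signs turned, never past the threshold, for Psma4 (0.021 under median-ratio scaling, 0.066 under quantile normalization), Psmb1 (0.014 and 0.073), Psme1 (0.052 and 0.12) and, under quantile normalization, Psmd6 (0.011), Psmd13 (0.040), Psme2 (0.049), Psmf1 (0.0066) and Nfe2l1 (0.010). On leaving out 1 library, Psmb8 ranged from -0.0010 to 0.56 and Psmb9 from -0.11 to 0.36, both lowest without ANIT library 1, and Psme1 from -0.32 to 0.030, above 0 without ANIT plus celastrol library 3 or ANIT library 3. Same-numbered libraries of the 2 groups did not all deviate together (r = 0.149, 0.231 and -0.0917), so the numbers were not taken as pairs; with the replicate number as a block 18 of the 41 genes and 2585 of all genes were called, and not every library was closest to its own number. An FPKM table without read totals gives no counting interval for a single value.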
